A study of Mus musculus with 6 samples.

Results

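The genes described here are 10 enzymes and enzyme subunits of ceramide metabolism, matched by symbol among the 54838 genes of the deposited count tables: Sptlc1, Sptlc2, Cers2, Cers5, Cers6, Sgms1, Ugcg, Smpd1, Asah1 and Sgpl1. They were listed by pathway, with earlier results of these data known, and cover the steps from de novo ceramide synthesis through sphingomyelin and glucosylceramide to lysosomal breakdown and the exit by sphingosine phosphate. B16F10, a mouse melanoma cell line, was grown in serum-containing medium and treated with vehicle (DMSO, 3 libraries) or with 10 µM GSK126, an inhibitor of the histone methyltransferase EZH2 (3 libraries). Expression was profiled by RNA sequencing of total RNA extracts, no genetic modification of the line is labelled, and the only labelled difference between the groups is the drug. The sources used here do not give the treatment time, and nothing in the labels says whether replicates were separate cultures, so p-values measure the spread between these libraries, which may be technical.

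Ceramide is the hub of sphingolipid metabolism. The endoplasmic reticulum makes it from serine and palmitoyl-CoA, the Golgi converts it to sphingomyelin or glucosylceramide, and lysosomes release it again from sphingomyelin and glycosphingolipids. Ceramidases turn ceramide into sphingosine, which can be phosphorylated, and sphingosine phosphate lyase then removes it from the pathway irreversibly. In melanoma cells the balance of ceramide against sphingosine phosphate is studied for its links to cell death, growth and drug response.

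The clearest difference among the 10 genes was in Smpd1, which encodes acid sphingomyelinase, the lysosomal enzyme that cleaves sphingomyelin to ceramide: its transcript was 1.77-fold higher after GSK126 (95% interval 1.65 to 1.89). Sgpl1, the sphingosine phosphate lyase, rose 1.21-fold, and Cers6, a ceramide synthase that uses palmitoyl-CoA, rose 1.19-fold. Cers2, the synthase for very long acyl chains, fell to 0.867 of its DMSO level. All 10 genes passed the filter on low counts, and 4 of the 10 passed the test, 3 higher and 1 lower, where 11.1% of all 13601 tested genes did (5.87% higher and 5.18% lower). The libraries of the 2 groups did not overlap for 6 of the 10 genes, 4 higher and 2 lower, against 34.4% of all tested genes (17.6% higher and 16.8% lower). The median log2 fold change of the 10 genes was 0.07, beside -0.00048 over all tested genes, and their median absolute log2 fold change was 0.106, beside 0.156 over all tested genes. Of the 4 calls, that of Smpd1 held under every one of the 14 other settings of the analysis, and the other 3 calls each ended under some of them, as given beside each gene and, for the replicate block, with the limits at the close.

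Libraries held between 13594939 and 14713373 reads assigned to genes. On the first 2 principal components of the 10973 tested genes with a mean of at least 5 CPM, GSK126 replicate 3 stood apart from the other GSK126 libraries on the second component (17.3 against -10.7 and -11.6). It was the highest of the 3 GSK126 libraries for 8 of the 10 ceramide genes, all but Cers6 and Sgpl1, for some by little (Smpd1 at 176 CPM against 173 in replicate 2). The share of all tested genes that were highest in this library was not computed, so the count has nothing to be set against. The part of GSK126 replicate 3 in the results is given by the fits without it. Ezh2, the gene of the drug's target protein, was at 189 ± 4.84 CPM (reads scaled to a common library size, SD, n = 3) under DMSO and 193 ± 3.47 under GSK126 (adjusted p = 0.669), which does not check the labels, since the drug acts on the protein. All 7 melanocyte lineage markers were at 10 FPKM or more, while all 5 immune, 4 endothelial and 4 keratinocyte markers and 4 of 5 fibroblast markers were under 1 FPKM. The remaining fibroblast marker, Col1a2, was at 1.35 FPKM under DMSO and 1.05 under GSK126. The summed level of the melanocyte markers was 6159 to 6581 FPKM under DMSO and 6483 to 6572 FPKM under GSK126. Single markers moved in both directions. Of the 7, 4 rose (Mitf, Pmel, Dct and Sox10) and 1 fell (Mlana), where 11.1% of all tested genes passed the test in either direction. Mean levels went from 63.9 FPKM under DMSO to 96.9 FPKM under GSK126 for Mitf and from 1660 to 1369 FPKM for Mlana. In bulk RNA, a change in the share of cells in a given state and a change in RNA per cell cannot be told apart.

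**Figure D1:**
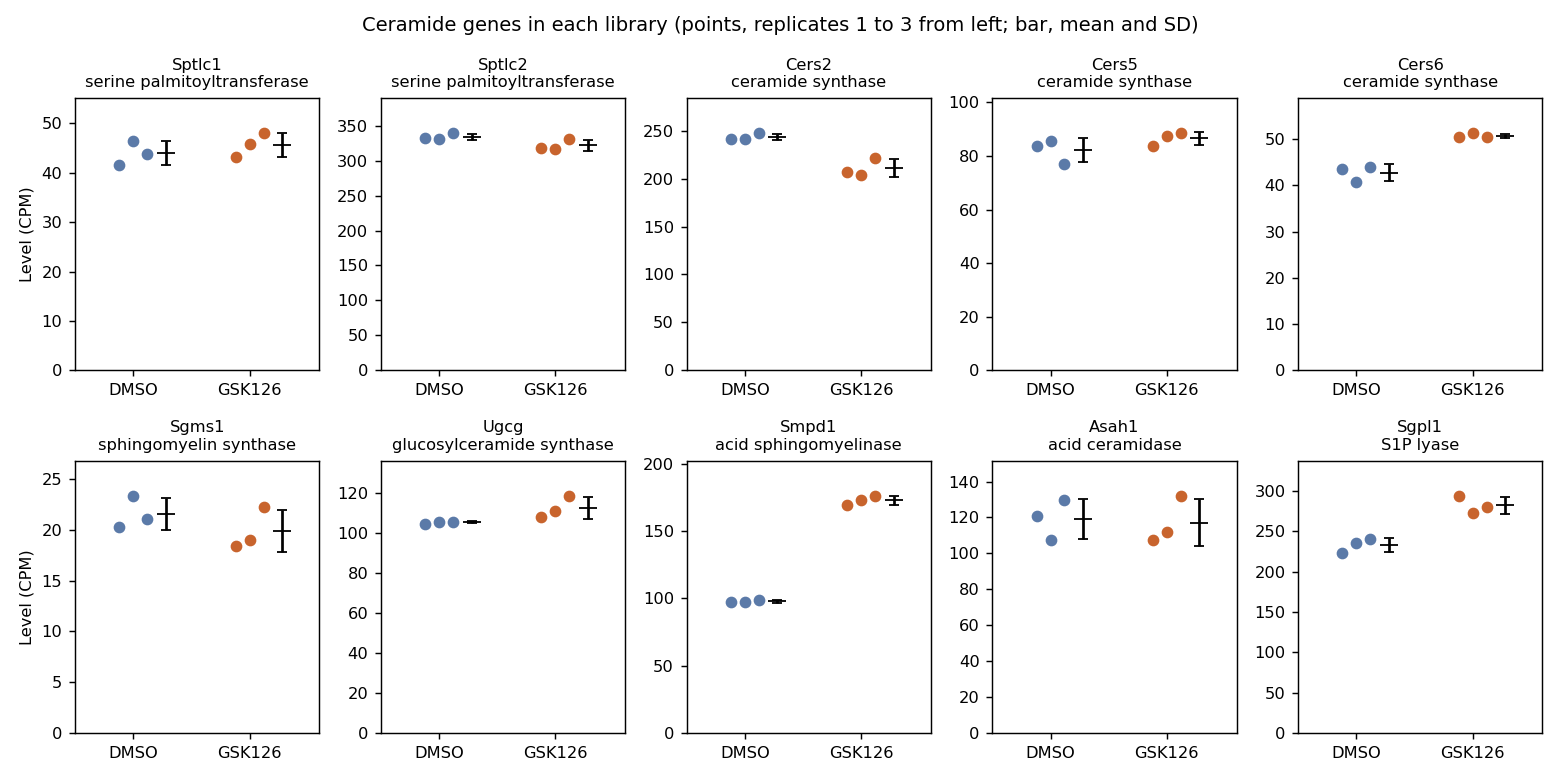
Level of each of the 10 ceramide genes in CPM (TMM-scaled read counts, y axes from 0) in the 3 DMSO and 3 GSK126 libraries, replicates 1 to 3 from left, with the mean and SD as bars. Smpd1 lies between 97.1 and 99.1 CPM under DMSO and between 169.6 and 176 CPM under GSK126, and no other gene shows a gap of that size relative to its level.

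Within each library, levels of different genes were compared per transcript length, in FPKM (fragments scaled to transcript length and library size). Under DMSO the order from high to low was Cers2 (37.5), Sptlc2 (30.2), Sgpl1 (23.4), Asah1 (21.3), Smpd1 (18.4), Ugcg (17.9), Cers5 (13.3), Sptlc1 (11.9), Cers6 (3.89) and Sgms1 (1.26), all as mean FPKM of 3 libraries. The neighbours Sgpl1 and Asah1, and Cers5 and Sptlc1, overlapped between libraries and cannot be ordered. Under GSK126, Smpd1 stood level with Cers2, both at 32.6 FPKM with overlapping libraries, and above Sptlc2 (29.2) and Sgpl1 (28.4), whose libraries overlapped each other. Below these came Asah1 (20.9) and Ugcg (19.2), whose libraries overlapped, then Cers5 (14.0), Sptlc1 (12.4), Cers6 (4.63) and Sgms1 (1.17). Smpd1 thus moved from the fifth place to share the top one, while Sgms1, the sphingomyelin synthase of the Golgi, was lowest in both groups.

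The promoters of the 4 genes that passed the test are shown because they moved in one comparison, in both directions, and can be read against each other. Each run covers 300 bases, from 250 before to 50 after the annotated start, 5′ to 3′ on the gene's own strand, as given by RefSeq on GRCm38.p6. Of the 10 genes, 9 had such a window, all but Asah1. Capitals mark matches, read on either strand, to any of these short motifs. The E-box is spelled CACGTG. The M-box core, which is bound by melanocyte factors, is spelled CATGTG. The core of the hypoxia response element is spelled ACGTG, and since these letters lie within the E-box, each E-box also counts as such a core on both strands. The GC box is spelled GGGCGG. The box known as CCAAT is spelled as its name. Smpd1 is at chr7:105554110-105554409 (plus strand), Sgpl1 at chr10:61147635-61147934 (minus strand), Cers6 at chr2:68861191-68861490 (plus strand) and Cers2, in the first of its 2 windows, at chr3:95314940-95315239 (plus strand).
Smpd1: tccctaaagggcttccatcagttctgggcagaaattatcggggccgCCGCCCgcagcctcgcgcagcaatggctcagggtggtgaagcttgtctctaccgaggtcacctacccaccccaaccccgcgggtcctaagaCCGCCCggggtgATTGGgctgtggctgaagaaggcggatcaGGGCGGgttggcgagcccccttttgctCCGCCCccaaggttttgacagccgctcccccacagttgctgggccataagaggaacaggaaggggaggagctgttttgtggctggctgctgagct
Sgpl1: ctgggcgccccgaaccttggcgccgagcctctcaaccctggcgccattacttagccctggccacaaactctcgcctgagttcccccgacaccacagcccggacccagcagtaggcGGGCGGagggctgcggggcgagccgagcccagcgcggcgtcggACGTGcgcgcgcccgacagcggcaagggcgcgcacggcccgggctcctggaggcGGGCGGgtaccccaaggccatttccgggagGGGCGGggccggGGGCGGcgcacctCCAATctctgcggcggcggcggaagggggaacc
Cers6: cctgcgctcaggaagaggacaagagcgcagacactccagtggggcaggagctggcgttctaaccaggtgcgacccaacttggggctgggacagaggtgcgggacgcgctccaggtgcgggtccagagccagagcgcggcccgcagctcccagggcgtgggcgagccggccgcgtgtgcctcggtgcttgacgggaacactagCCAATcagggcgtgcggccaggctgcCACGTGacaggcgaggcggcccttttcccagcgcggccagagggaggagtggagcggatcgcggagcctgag
Cers2: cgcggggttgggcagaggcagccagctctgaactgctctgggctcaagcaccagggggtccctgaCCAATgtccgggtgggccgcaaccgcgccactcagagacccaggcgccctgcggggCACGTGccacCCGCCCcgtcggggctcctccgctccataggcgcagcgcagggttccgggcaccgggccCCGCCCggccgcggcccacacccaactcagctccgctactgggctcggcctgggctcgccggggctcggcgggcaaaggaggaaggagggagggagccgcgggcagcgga
The Smpd1 run holds 4 GC boxes and 1 CCAAT box, all of them before the start and the nearest GC box 45 bases from it, and no E-box, M-box core or hypoxia element core. Sgpl1 also has 4 GC boxes, with a CCAAT box 18 bases after the start and a hypoxia element core 92 bases before it. Cers6 has no GC box, but an E-box 22 bases before the start and a CCAAT box 48 bases before it. Cers2, which moved the other way, has an E-box too in the window shown, 129 bases before the start, with 2 GC boxes and a CCAAT box. The other Cers2 window holds no match to any of these motifs. Among all 32851 promoter windows of this length, 7.15% hold an E-box, 14.2% an M-box core, 19.6% a hypoxia element core, 35.7% a GC box and 37.4% a CCAAT box. A match is a description of the letters and not evidence of binding.

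De novo synthesis starts with serine palmitoyltransferase, whose Sptlc1 subunit carries the complex and whose Sptlc2 subunit holds the catalytic site. Sptlc1 (ENSMUSG00000021468, chr13:53332748-53377397) was at 41.6, 46.5 and 43.7 CPM in the DMSO libraries and at 43.1, 45.9 and 48.0 CPM in the GSK126 libraries. These values overlapped, and the log2 fold change was 0.06 (SE 0.07, adjusted p = 0.663). Sptlc2 (ENSMUSG00000021036, chr12:87305058-87388355) was at 333, 331 and 339 CPM under DMSO and at 319, 316 and 331 CPM under GSK126. Its GSK126 libraries all lay below its DMSO libraries, by little, and the gene did not pass the test (log2 fold change -0.05, SE 0.04, adjusted p = 0.402). The 95% interval of its log2 fold change, -0.14 to 0.04, leaves out the Cers2 estimate of -0.21. It overlaps the Cers2 interval, -0.31 to -0.10, and the difference between the genes was not tested. The ratio of Sptlc2 to Sptlc1 on the FPKM scale was 2.55 ± 0.151 under DMSO and 2.36 ± 0.0947 under GSK126 (SD, n = 3), with overlapping libraries. Of the 4 other tested genes of this step, which include the small subunit Sptssa and the ORMDL regulators, 0 passed the test by edgeR, by DESeq2 or by limma-voom, and 0 had an unadjusted p below 0.05. Sptssa, the one with the highest FPKM, had a log2 fold change of -0.11 (adjusted p = 0.584).

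The next steps are carried out by the ceramide synthases, which attach an acyl chain to the sphingoid base and differ in the chain length they use, and by the desaturase Degs1, which converts dihydroceramide to ceramide. Cers2 (ENSMUSG00000015714, chr3:95314791-95323599) was at 242, 241 and 247 CPM under DMSO and at 207, 204 and 221 CPM under GSK126. Every GSK126 library lay below every DMSO library, and the gene fell by 0.21 on the log2 scale (SE 0.05, 95% interval -0.31 to -0.10, adjusted p = 0.032). That call rests on the full set of libraries: it was lost in 5 of the 6 fits that left out 1 library, with adjusted p up to 0.0998, and was kept, at 0.0149, only without GSK126 replicate 3. It was also lost without the filter on low counts (0.0557). Cers2 shares 75 bases of exon with Setdb1 on the opposite strand, which had 44.2% as many reads and a log2 fold change of -0.08 (adjusted p = 0.517), and with reads of both genes summed the change was -0.17 and the adjusted p 0.0645.

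Cers6 (ENSMUSG00000027035, chr2:68861441-69114282) was at 43.5, 40.7 and 44.1 CPM under DMSO and at 50.5, 51.3 and 50.5 CPM under GSK126. The groups did not overlap and the GSK126 libraries were tightly grouped, and the gene rose by a log2 fold change of 0.25 (SE 0.06, 95% interval 0.10 to 0.39, adjusted p = 0.0447). Leaving out any 1 of the 6 libraries ended this call (adjusted p 0.068 to 0.152), as did DESeq2 (0.0648) and testing without the filter on low counts (0.0715). Cers5 (ENSMUSG00000023021, chr15:99734881-99772885), a synthase that also uses palmitoyl-CoA, was at 83.8, 85.5 and 77.1 CPM under DMSO and at 83.9, 87.3 and 88.4 CPM under GSK126. Its groups overlapped, and it did not pass the test (log2 fold change 0.08, SE 0.06, adjusted p = 0.448). Degs1 was at 49.0, 52.6 and 49.1 CPM under DMSO and at 51.2, 45.4 and 109.8 CPM under GSK126, so that its log2 fold change of 0.45 (SE 0.31, adjusted p = 0.394) was -0.06 without GSK126 replicate 3. None of the 4 other tested genes of this step passed the test by edgeR, DESeq2 or limma-voom, and 0 of the 4 had an unadjusted p below 0.05.

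Seen as shares of the summed FPKM of the 6 ceramide synthases, Cers2 made up 64.7% ± 1.54 under DMSO and 59.8% ± 0.433 under GSK126 (SD, n = 3). Cers5 made up 22.9% ± 1.03 and then 25.8% ± 0.755, and Cers6 made up 6.72% ± 0.323 and then 8.51% ± 0.355. For each of these 3 genes the shares of the groups did not overlap. Shares of a sum depend on each other, so a lower Cers2 level raises the other shares. The Cers5 level itself overlapped between groups and did not pass the test (log2 fold change 0.08, adjusted p = 0.448). Cers1, which shares exons with Gdf1 and Upf1, was near 3.6% in both groups, at 3.62% and 3.61%, and Cers4 lay between 1.87% and 2.53% in the 6 libraries. The summed level of the family was 58.0 ± 0.849 FPKM under DMSO and 54.5 ± 1.79 FPKM under GSK126, also without overlap. That sum includes Cers2, which went from 37.5 to 32.6 FPKM, and is not a result separate from it.

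**Figure D2:**
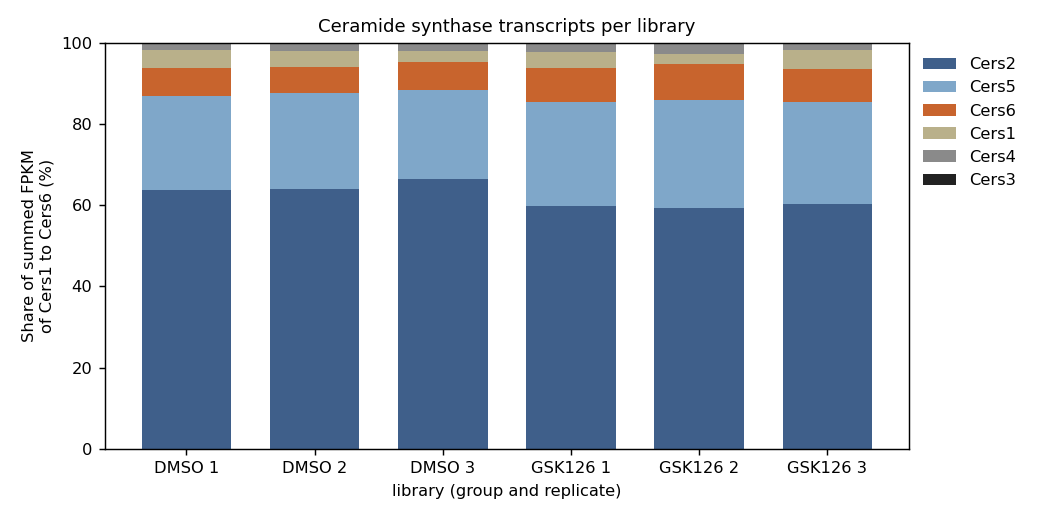
Share of each ceramide synthase in the summed FPKM of Cers1 to Cers6 (y axis, percent) in each of the 6 libraries (x axis). The Cers2 segment is shorter in the 3 GSK126 libraries (mean 59.8%) than in the 3 DMSO libraries (mean 64.7%), and the Cers5 and Cers6 segments are longer.

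Ratios of 2 genes within a library do not depend on library scaling. The ratio of Cers6 to Cers2 rose in mean by 0.45 on the log2 scale, a 1.37-fold change, and that of Cers5 to Cers2 by 0.28, a 1.22-fold change, with no overlap between groups. Each gave p = 0.1 in an exact two-sided permutation test, which is the smallest value that 3 libraries against 3 allow, and 0.12 after adjustment over the 6 ratios computed, so neither can pass the threshold in this design. In both ratios GSK126 replicate 3 lay nearest to the DMSO libraries, and leaving out any 1 library gave log2 differences between 0.42 and 0.49 for Cers6 to Cers2 and between 0.23 and 0.32 for Cers5 to Cers2.

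Ceramide leaves for sphingomyelin through Sgms1 and for glucosylceramide through Ugcg. Sgms1 (ENSMUSG00000040451, chr19:32122727-32389714) was at 20.3, 23.3 and 21.1 CPM under DMSO and at 18.4, 19.0 and 22.3 CPM under GSK126. Its groups overlapped through GSK126 replicate 3, and its log2 fold change was -0.12 (SE 0.10, adjusted p = 0.51). Sgms1 shares 10 bases of exon with 2700046G09Rik on the opposite strand, which had 16.4% as many reads, and with both summed the log2 fold change was -0.02 (adjusted p = 0.933). Ugcg (ENSMUSG00000028381, chr4:59189257-59222833), the first enzyme of glycosphingolipid synthesis, was at 105, 106 and 106 CPM under DMSO and at 108, 111 and 119 CPM under GSK126. Every GSK126 library was above every DMSO library, with the highest in replicate 3, but the gene did not pass the test (log2 fold change 0.09, SE 0.05, 95% interval -0.02 to 0.21, adjusted p = 0.28). The ratio of Ugcg to Sgms1 was 14.3 ± 0.956 under DMSO and 16.5 ± 0.918 under GSK126 on the FPKM scale (SD, n = 3), with no overlap and an exact permutation p of 0.1 (adjusted 0.12).

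Among the other genes of these branches, 0 of 5 tested genes of sphingomyelin synthesis and ceramide transfer passed the test by edgeR, DESeq2 or limma-voom, and 0 had an unadjusted p below 0.05. Cerk, the ceramide kinase, had the highest FPKM of the 5 and spread widely within both groups, from 76.5 to 131 CPM under DMSO and from 78.3 to 122 CPM under GSK126 (log2 fold change -0.21, SE 0.23, adjusted p = 0.597). In glycosphingolipid synthesis, 1 of 6 other tested genes rose, Plekha8, which encodes a transfer protein for glucosylceramide in the Golgi. Plekha8 was at 124, 136 and 116 CPM under DMSO and at 171, 168 and 197 CPM under GSK126. These groups did not overlap, and the rise was 1.43-fold (log2 fold change 0.51, SE 0.08, adjusted p = 0.0123); it was not past the threshold without DMSO replicate 1 (adjusted p = 0.0578). Plekha8 shares 208 bases of exon with Fkbp14 on the opposite strand, which rose too (log2 fold change 0.44, adjusted p = 0.0169), and with both summed the adjusted p was 0.00748.

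Smpd1 (ENSMUSG00000037049, chr7:105554360-105558389) was at 97.1, 97.7 and 99.1 CPM in the DMSO libraries and at 169.6, 173 and 176 CPM in the GSK126 libraries, from 1321 to 2548 reads per library. All GSK126 libraries lay far above all DMSO libraries, and the spread within a group was 1.08% of the mean under DMSO and 1.89% under GSK126. The log2 fold change was 0.82 (SE 0.04, 95% interval 0.72 to 0.92, adjusted p = 0.000178), which placed Smpd1 at rank 10 of 13601 genes by p, while 3.17% of tested genes had a larger absolute change. In FPKM the level went from 18.4 ± 0.118 to 32.6 ± 0.45 (SD, n = 3). Across the 14 other settings its log2 fold change lay between 0.79 and 0.83, and leaving out any 1 library gave an adjusted p between 0.000497 and 0.00334.

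Smpd1 was the 1 of 5 tested sphingomyelinase and related genes that passed the test. Of the 4 others, 1 had an unadjusted p below 0.05 in the higher and 1 in the lower direction, and 0 passed by DESeq2 or limma-voom. Over all tested genes, 14.4% had an unadjusted p below 0.05 in the higher and 13.1% in the lower direction. Smpdl3a, a related phosphodiesterase and the most abundant of those 4 per length (27.9 FPKM under GSK126), had a log2 fold change of 0.10 (adjusted p = 0.327). The level of Smpd1 was also set against that of its neighbours in the pathway within each library. Its ratio to Sgms1, which makes the substrate of acid sphingomyelinase, was 14.6 ± 1.04 under DMSO and 28.1 ± 2.37 under GSK126 on the FPKM scale, a 1.92-fold difference (SD, n = 3). Its ratio to Asah1, which uses the product, was 0.870 ± 0.0783 under DMSO and 1.57 ± 0.140 under GSK126, a log2 difference of 0.85. In neither ratio did the groups overlap, and each had the smallest exact permutation p of the design, 0.1 (adjusted 0.12). GSK126 replicate 3 lay nearest to DMSO in both. Neither Sgms1 nor Asah1 passed the test (log2 fold changes -0.12 and -0.03), so both ratios largely repeat the rise of Smpd1.

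**Figure D3:**
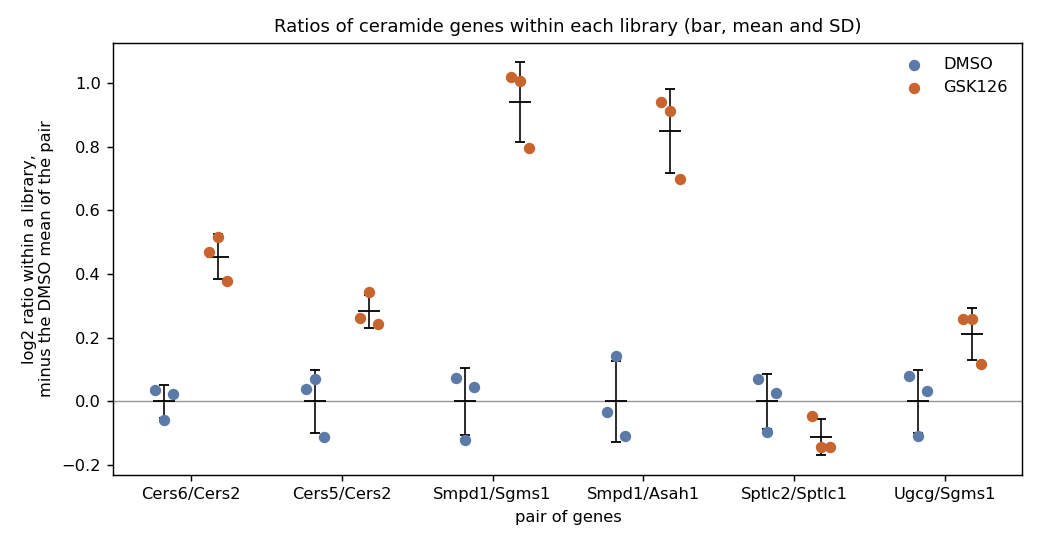
Log2 ratio of 2 ceramide genes within each library, minus the DMSO mean of that pair (y axis), for 6 pairs (x axis), with points for libraries and bars for mean and SD. The 2 ratios with Smpd1 lie highest under GSK126 (means 0.94 and 0.85), and only Sptlc2 to Sptlc1 overlaps between the groups.

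Asah1 (ENSMUSG00000031591, chr8:41340197-41374773) encodes acid ceramidase, which cleaves lysosomal ceramide to sphingosine and so takes the product of Smpd1. It was at 121, 107 and 129.7 CPM under DMSO and at 107, 112 and 132 CPM under GSK126. The groups overlapped almost fully, and the log2 fold change was -0.03 (SE 0.10, 95% interval -0.26 to 0.20, adjusted p = 0.886). That interval lies wholly below the interval of Smpd1. Of 3 other tested ceramidases, 0 passed the test by edgeR, DESeq2 or limma-voom. In each direction 1 had an unadjusted p below 0.05, where 14.4% of all tested genes had one higher and 13.1% lower. Asah2, the neutral ceramidase and the most abundant of the 3, had a log2 fold change of 0.23 (SE 0.08, adjusted p = 0.123).

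Sgpl1 (ENSMUSG00000020097, chr10:61098642-61147703) cleaves sphingosine phosphate and so ends the pathway. It was at 224, 236 and 240.4 CPM under DMSO and at 294, 273 and 281 CPM under GSK126. Every GSK126 library exceeded every DMSO library, with the highest in replicate 1, and the gene rose by a log2 fold change of 0.27 (SE 0.05, 95% interval 0.16 to 0.39, adjusted p = 0.015). The call was lost without DMSO replicate 1 (adjusted p = 0.0683), DMSO replicate 2 (0.058) or GSK126 replicate 1 (0.0512), and held in the other 3 such fits. Among 8 other tested genes of sphingosine phosphate turnover and export, 0 passed by edgeR, DESeq2 or limma-voom. An unadjusted p below 0.05 was found for 2 of the 8, both higher, where 14.4% of all tested genes had one in that direction. Both of these genes share exons with opposite-strand genes that hold more reads. Plpp2, a lipid phosphatase with the highest FPKM of the 8, had a log2 fold change of -0.01 (adjusted p = 0.97). Of the receptors for sphingosine phosphate, 2 of 5 were tested, and the more abundant of them, S1pr2, was at 60.9 ± 3.39 CPM and then 53.3 ± 2.96 CPM (SD, n = 3, log2 fold change -0.19, adjusted p = 0.133).

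The lysosome also releases ceramide from glycosphingolipids, and Smpd1 was read beside the 12 genes listed for glycosphingolipid breakdown, all of which were tested. The list also holds Gba2, whose enzyme is not lysosomal and which did not pass the test (log2 fold change 0.25, adjusted p = 0.313). The test was passed by 3 of the 12, all higher, and missed by 9, where 5.87% of all tested genes rose. An unadjusted p below 0.05 was found for 5 of the 12, all higher, where 14.4% of all tested genes had one in that direction. Neu1, the lysosomal sialidase, was at 42.9, 46.2 and 47.1 CPM under DMSO and at 69.4, 74.0 and 76.8 CPM under GSK126. It rose 1.62-fold with no overlap (log2 fold change 0.69, SE 0.07, adjusted p = 0.00165). Arsa, which removes sulfate from sulfatide, was at 51.9, 49.8 and 64.6 CPM under DMSO and at 89.1, 87.1 and 84.0 CPM under GSK126. It rose 1.56-fold, again without overlap (log2 fold change 0.65, SE 0.10, adjusted p = 0.01). Gla, the alpha-galactosidase, was at 14.6 ± 0.982 CPM under DMSO and 19.0 ± 0.605 CPM under GSK126 (SD, n = 3) and rose 1.30-fold (adjusted p = 0.0345), a call lost in all 6 fits that left out 1 library, by DESeq2 (0.0674) and without the filter on low counts (0.0563). Neu1 and Arsa passed in all 6 such fits. The median log2 fold change of the 12 genes was 0.13 and the largest, that of Neu1, was 0.69. Smpd1, at 0.82, had the largest of all tested sphingolipid genes, so it lies above any such median.

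Over the whole list of 65 other sphingolipid genes, 7 had 0 reads in all libraries, 48 were tested, 4 rose and 0 fell by edgeR, and 44 did not pass. The 4 of 48 are 8.33%, beside 11.1% of all tested genes called in either direction and 5.87% higher. An unadjusted p below 0.05 was found for 11 of the 48 in the higher and 3 in the lower direction, beside 14.4% and 13.1% of all tested genes. DESeq2 called 3 higher and 0 lower, and limma-voom 4 and 0. The median log2 fold change of the 48 was 0.07, as for the 10 enzymes, and 18 of the 48 (37.5%) did not overlap between groups, near the 34.4% of all tested genes.

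**Figure D4:**
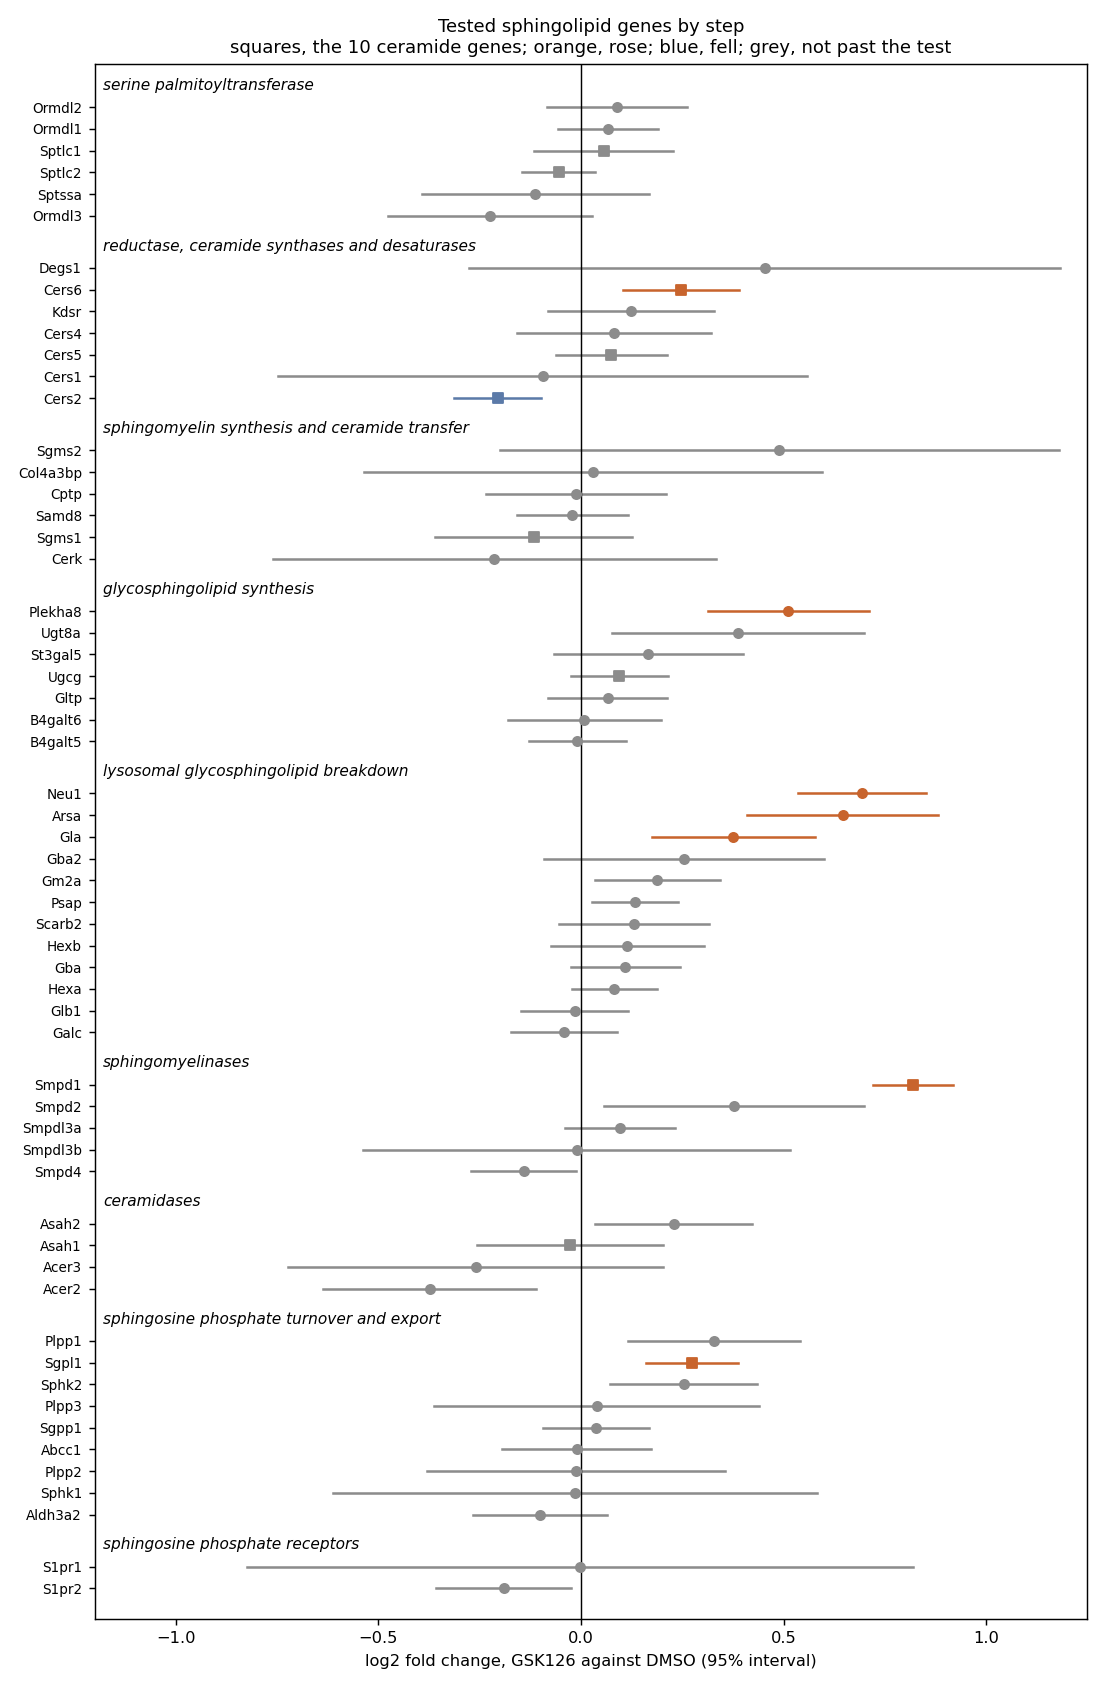
Log2 fold change (GSK126 against DMSO, x axis) with its 95% interval for each tested sphingolipid gene, grouped by step of the pathway, with squares for the 10 ceramide genes and circles for the other 48. Orange marks the 7 genes that rose, blue the 1 that fell (Cers2) and grey the 50 that did not pass the test, and Smpd1 lies farthest to the right at 0.82.

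The genes whose levels over the 6 libraries most resembled those of Smpd1 were found among 9873 other protein-coding genes with a mean of at least 5 CPM and reads in every library, predicted genes and clone names left out, by the root mean square distance between log2 CPM values, each centred on its own mean. The nearest were Pfkl, a phosphofructokinase subunit (distance 0.0378), Abat, the GABA transaminase (0.0388), Galnt10, a glycosyltransferase of O-glycan synthesis (0.0471), Pgm1, as named in the tables (0.0503), and Slc2a1, a glucose transporter (0.0512). Their fold changes were 1.84, 1.71, 1.74, 1.73 and 1.69 in that order, close to the 1.77 of Smpd1. With 3 libraries in each of 2 groups, such likeness rests mainly on the difference between the groups, and it is given as a description.

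The adjusted p-values of the 4 called enzymes were compared over all settings. Smpd1 stayed left of the threshold of 0.05 in every setting, while Sgpl1, Cers2 and Cers6 crossed it in some, most often where a library was left out.

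**Figure D5:**
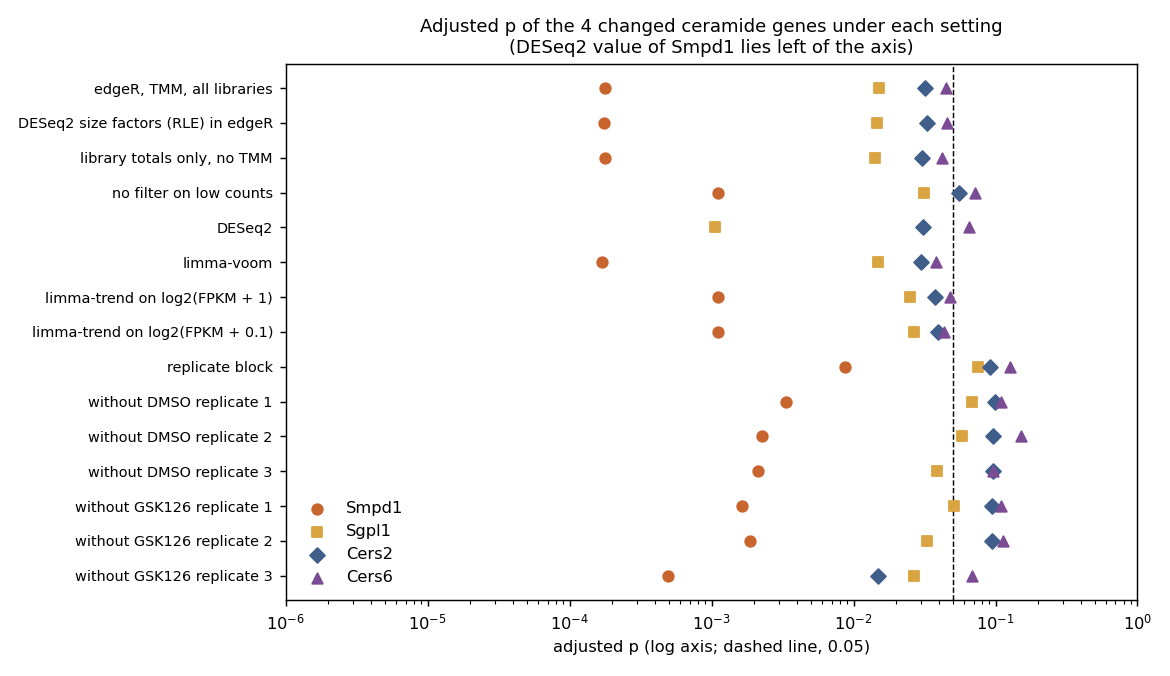
Adjusted p (x axis, log scale, dashed line at 0.05) of Smpd1, Sgpl1, Cers2 and Cers6 under each setting of the analysis (y axis). Smpd1 lies left of the line throughout, its largest value being 0.00876 with the replicate number as a block, while Cers6 lies right of it in all 6 fits without 1 library; the DESeq2 value of Smpd1 lies beyond the left end of the axis.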

How the data were processed

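The submitters' processing notes name CASAVA 1.8, HISAT2 and the builds GRCm38.p4 and mm10, without their roles; counting tool, strand setting and annotation: not given in the sources used here. The deposited tables give, per gene and library, raw read counts and FPKM values that the authors computed. Counts were tested with edgeR 4.0.16 (R 4.3.3; filterByExpr, TMM scaling, quasi-likelihood F test on group), with Benjamini-Hochberg adjustment over all 13601 tested genes and a threshold of 0.05. CPM values are TMM-scaled. FPKM served for levels between genes and for 2 of the alternatives. The 6 ratios of genes within a library were tested by exact permutation. The alternatives were other scalings, no filter, DESeq2 1.42.0, limma 3.58.1 (voom, and trend on log2 of FPKM plus 1 or 0.1), the replicate number as a block, leaving out each library, and summing genes that share exons. Replicates differed by more than sampling noise, and none was a duplicate. The script was checked on simulated counts. The changes set there were larger than those of Cers2, Cers6 and Sgpl1, so this check does not cover changes of their size. Depth was 13594939 to 14713373 reads. Intervals of folds are for the difference between the groups, judged from the spread between libraries, and do not describe single libraries.

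The 10 members and all gene lists were chosen with earlier results of these data known. Named are the 10 members; other pathway genes past the threshold, or the most abundant tested one of a role with none; genes sharing exons with these at 10% or more of their reads; and the 5 nearest to Smpd1. Exon sharing and strands were read from GENCODE M21, with which 54000 of 54723 matched identifiers shared their position. Identifiers sharing a symbol (103) were kept apart.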

Additional observations from a re-analysis of the deposited data

How the results depend on the processing

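Among the 10 ceramide genes, 3 rose and 1 fell as reported. Without the filter on low counts, 2 rose (Cers6 lost its call), 0 fell and 899 of all genes changed, where 1503 did with it; this setting tests more genes. Leaving out 1 library at a time, which leaves fewer samples, gave 1 to 2 ceramide genes that rose and 0 to 1 that fell, 529 to 1243 genes changed in all, and 2 to 4 other sphingolipid genes that rose. The number of other sphingolipid genes that fell was 0 to 1, the 1 being Acer2 without GSK126 replicate 3 (adjusted p = 0.0346), named here after its values were seen. The lowest number of changed genes, 529, came without DMSO replicate 1, and leaving out the other DMSO libraries gave 577 (replicate 2) and 694 (replicate 3). Leaving out a GSK126 library gave 698 (replicate 1), 815 (replicate 2) and 1243 (replicate 3). The log2 fold change of genes that did not pass the test turned sign in some of these fits. That of Asah1 ran from -0.12 to 0.035, above 0 when DMSO replicate 3 or GSK126 replicate 1 or 2 was dropped. That of Plpp2 ran from -0.16 to 0.095, above 0 when DMSO replicate 2 or 3 or GSK126 replicate 1 was dropped. The range was -0.058 to 0.68 for Degs1, negative when GSK126 replicate 3 was dropped, and -0.19 to 0.022 for Sptssa, positive when GSK126 replicate 2 was dropped.

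Replicate numbers are shared between the groups, but same-numbered libraries deviated together weakly or not at all (r = 0.067, 0.021 and -0.042 over 10973 genes). DMSO replicates 1 and 2 each correlated best with the same-numbered GSK126 library, while DMSO replicate 3 did so with GSK126 replicate 2 (r = 0.079). With correlations this small, the numbers were not taken as pairs. With the replicate block, 408 of all genes changed, 1 ceramide gene rose (Smpd1, adjusted p = 0.00876), 0 fell and 2 other sphingolipid genes rose. With the block, Sgpl1 had an adjusted p of 0.0751, Cers2 of 0.0913 and Cers6 of 0.127, and of the other sphingolipid genes Plekha8 (0.0624) and Gla (0.1003) lost their calls.

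The ratios kept their direction in every fit that left out 1 library: 0.80 to 0.93 for Smpd1 to Asah1, 0.88 to 1.01 for Smpd1 to Sgms1, 0.16 to 0.26 for Ugcg to Sgms1 and -0.16 to -0.08 for Sptlc2 to Sptlc1, all as log2 differences. In all, 364 values of named genes kept their direction and their side of the threshold under an alternative, 35 lost the threshold, 2 gained it and 8 changed sign. With 3 libraries per group, the calls of Cers2, Cers6 and Sgpl1 were each lost in some or all fits that left out 1 library, and that of Smpd1, from 1321 reads or more per library, in 0 of 6.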
